A study of Mus musculus with 19 samples.

Results

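The 5 genes described here are Mt1, Mt2, Mt3, Mtf1 and Slc30a1. Mt1, Mt2 and Mt3 encode metallothioneins, Mtf1 encodes the metal-sensing transcription factor that induces Mt1 and Mt2, and Slc30a1 encodes the zinc exporter ZnT1. All 5 were taken by name from the 54179 annotated genes of a single-cell RNA-seq experiment on the early mouse thymus. Wild-type EPCAM+PLET1+ cells, from C57BL/6 embryos by the study's methods, were sorted singly into 96-well plates at E10.5 (embryonic day), from the third pharyngeal pouch, and at E12.5, from the thymic primordium. The 4 plates of E10.5 carried the letters a, b, c and d, and the 4 plates of E12.5 the letters a, c, d and e. Of 733 wells, 711 cells met the limits on reads and genes, 356 at E10.5 and 355 at E12.5, with 85 to 92 cells per plate. The plate was the replicate, and since nothing in the labels ties a plate to a litter, p-values measure the spread between plates, which may be technical.

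Metallothioneins are small, cysteine-rich proteins that bind zinc and copper in the cytoplasm, buffer free zinc and take up reactive oxygen species. When zinc rises, MTF1 enters the nucleus, binds metal response elements upstream of Mt1, Mt2 and Slc30a1 and raises their transcription, and ZnT1 moves zinc out of the cell. Mt1 and Mt2 are also induced by glucocorticoids and by cell stress, while Mt3 is known best from the brain and Mt4 from stratified epithelia. Zinc is needed by the thymus, where zinc deficiency is known to cause involution.

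The metallothionein genes lie side by side on the plus strand of chromosome 8 (GRCm38), in the order Mt4 (94137197-94139031), Mt3 (94152607-94154146), Mt2 (94172664-94173568) and Mt1 (94179082-94180327). They span 43131 bases, with 5514 bases between Mt2 and Mt1. Mtf1 lies on chromosome 4 (124802104-124849800) and Slc30a1 on chromosome 1 (191906767-191913247). Antisense genes overlap Mt2 (Gm45774) and Slc30a1 (1700034H15Rik), a coding gene of the minus strand (1110065P20Rik) overlaps Mtf1, and these were not analysed here. The coding sequences of Mt1 and Mt2, shown because both genes are followed cell by cell below, are each 186 bases long with the stop codon. They differ at 38 bases, given in capitals, so that 79.6% of the bases were identical, and the longest run that the transcripts share was 20 bases.

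Mt1 coding sequence: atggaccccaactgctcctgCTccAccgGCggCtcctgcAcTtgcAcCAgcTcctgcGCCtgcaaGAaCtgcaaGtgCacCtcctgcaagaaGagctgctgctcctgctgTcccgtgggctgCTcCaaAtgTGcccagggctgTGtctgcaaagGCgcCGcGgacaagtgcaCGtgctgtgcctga

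Mt2 coding sequence: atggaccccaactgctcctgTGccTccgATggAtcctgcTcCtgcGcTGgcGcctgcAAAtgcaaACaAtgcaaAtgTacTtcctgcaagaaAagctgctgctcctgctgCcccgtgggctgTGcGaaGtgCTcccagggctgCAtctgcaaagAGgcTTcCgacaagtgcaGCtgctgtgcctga

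The 250 bases before the RefSeq start of each gene (GRCm38.p6) were searched on both strands for the metal response element cores TGCACNC and TGCGCNC. The windows of Mt1 (chr8:94178839-94179088) and Mt2 (chr8:94172368-94172617) are printed 5′ to 3′ on the plus strand, with matches in capitals, to show where the matches lie.

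Mt1 upstream: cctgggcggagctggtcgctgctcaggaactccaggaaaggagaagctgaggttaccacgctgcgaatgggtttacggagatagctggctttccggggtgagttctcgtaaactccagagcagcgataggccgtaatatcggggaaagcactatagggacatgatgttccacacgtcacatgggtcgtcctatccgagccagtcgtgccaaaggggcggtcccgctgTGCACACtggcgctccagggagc

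Mt2 upstream: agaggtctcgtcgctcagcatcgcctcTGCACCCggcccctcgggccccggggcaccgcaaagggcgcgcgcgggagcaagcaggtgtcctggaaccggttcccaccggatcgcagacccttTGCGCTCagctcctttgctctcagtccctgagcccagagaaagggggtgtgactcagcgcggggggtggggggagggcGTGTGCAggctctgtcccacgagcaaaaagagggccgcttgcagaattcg

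The window of Mt2 held 3 matches and that of Mt1 held 1, from 23 to 17 bases before the start. The windows of Slc30a1 and Mt4 held 1 match each, and those of Mt3 and Mtf1 none of these letters. Of 32851 RefSeq promoter windows of the same length, 21.4% held at least 1 match and 1.26% at least 3. Between the transcript start and the start codon, the Mt1 transcript held 4 matches, those of Mt2 and Mt3 held 3 each, that of Slc30a1 held 1 and that of Mtf1 none, and no share over other transcripts was computed. These transcripts are GENCODE models, whose starts can differ from those of RefSeq. The Mt2 window ends at 94172617 and its GENCODE gene begins at 94172664, and the bases between were not searched. Counts of windows alone thus depend on the start used. A match is a run of letters and was not tested as a site.

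Among the members, Mt2 was the gene with the most reads at both stages, Mt1 the next, Mtf1 and Mt3 were low, and Slc30a1 was listed at 0. Levels are CPM, counts scaled to equal totals of reads on protein-coding genes, summed over the cells of a plate. In such a sum, fewer expressing cells and less RNA per cell cannot be told apart, so each level is followed by the cells that carried it. Per kilobase of transcript, mean levels over the 8 plates were 888 CPM for Mt2, 122 for Mt1, 11.3 for Mt3 and 3.11 for Mtf1. Without division by length the order of the last pair turned, at 23.7 CPM for Mtf1 and 6.06 CPM for Mt3. In molecules of 1 run per 100000 molecules of all genes, not divided by length, Mtf1 was likewise above Mt3, at plate means of 1.77 ± 1.002 against 0.28 ± 0.33 at E10.5 and 1.55 ± 0.41 against 0.50 ± 0.52 at E12.5 (SD, n = 4 plates each). On that scale Mt2 was above Mt1 on each E10.5 plate (7.99 to 17.8 for Mt2, at most 11.1 for Mt1), while the E12.5 plates had means of 4.93 ± 3.32 for Mt2 and 5.10 ± 2.26 for Mt1, within the spread between plates.

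At E10.5 the level of Mt2 was 484.5 CPM on plate a, 740.6 on plate b, 949.4 on plate c and 435.1 on plate d. At E12.5 it was 120.0 on plate a, 520.8 on plate c, 86.1 on plate d and 292.4 on plate e. Plate c alone carried the E12.5 level into the range of E10.5, and the other 3 plates of E12.5 lay below all 4 of E10.5. The means were 652 ± 239 CPM (SD, n = 4 plates) and 255 ± 199 (n = 4), and an exact permutation test of the plates gave p = 0.086, where 4 against 4 can reach 0.029. For 14.4% of all genes tested, in either direction, plates of the stages did not overlap. In edgeR's quasi-likelihood test across 11499 genes the log2 fold change of Mt2 from E10.5 to E12.5 was -1.43 (SE 0.51, p = 0.017, Benjamini-Hochberg adjusted p = 0.15), which did not pass the threshold of 0.05. None of the 4 members that could be tested passed it, against a background of 6.24% of all genes tested.

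DESeq2 put Mt2 past the threshold (-1.42, adjusted p = 0.045). So did a fit of molecules in place of reads (-1.51, adjusted p = 0.035 in edgeR). That fit added the molecule counts of both runs of a plate, so a molecule seen in both counted in each. Molecules of 1 run alone were not fitted. The fold change was negative in 21 of 21 alternatives and past the threshold in 4, with adjusted p from 0.00065 to 0.33. The lowest of these came from leaving out the 5 highest cells of each plate, which removes every E12.5 cell with a Mt2 molecule and so fixes the direction, and it is no support. The sign of the difference held in each alternative, while its side of the threshold depended on the processing.

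The level of Mt1 overlapped between the stages. Its plates held 54.7, 64.7, 106 and 75.7 CPM at E10.5 and 65.9, 88.5, 23.0 and 58.2 CPM at E12.5, in the order of the letters. The groups overlapped, with means of 75.3 ± 22.2 and 58.9 ± 27.2 CPM (SD, n = 4 plates each) and an exact permutation p = 0.43. The log2 fold change was -0.47 (SE 0.40, adjusted p = 0.62 in edgeR).

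Mt3 ranged over plates from 0 to 10.54 CPM at E10.5, against 0 to 23.3 CPM at E12.5, with a log2 fold change of 0.55 (SE 1.74, adjusted p = 0.92 in edgeR). Without plate a of E12.5 the sign turned, to -0.87. Mtf1 ranged from 16.7 to 37.3 CPM at E10.5, against 13.04 to 43.9 CPM at E12.5, with a log2 fold change of -0.12 (SE 0.49, adjusted p = 0.94 in edgeR). The groups of plates overlapped for both genes. No read of Slc30a1 was listed in any well, which allows a share of up to 0.843% of the E10.5 cells and 0.845% of the E12.5 cells with a read, taken here and below as 3 cells of the total and covering counting error alone. Of 21964 protein-coding genes, 5969 (27.2%) were likewise at 0 in every well, so a listed 0 does not show that the gene is off. Mt4, the 4th metallothionein, did not exceed 0.23 CPM on any plate.

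**Figure D1:**
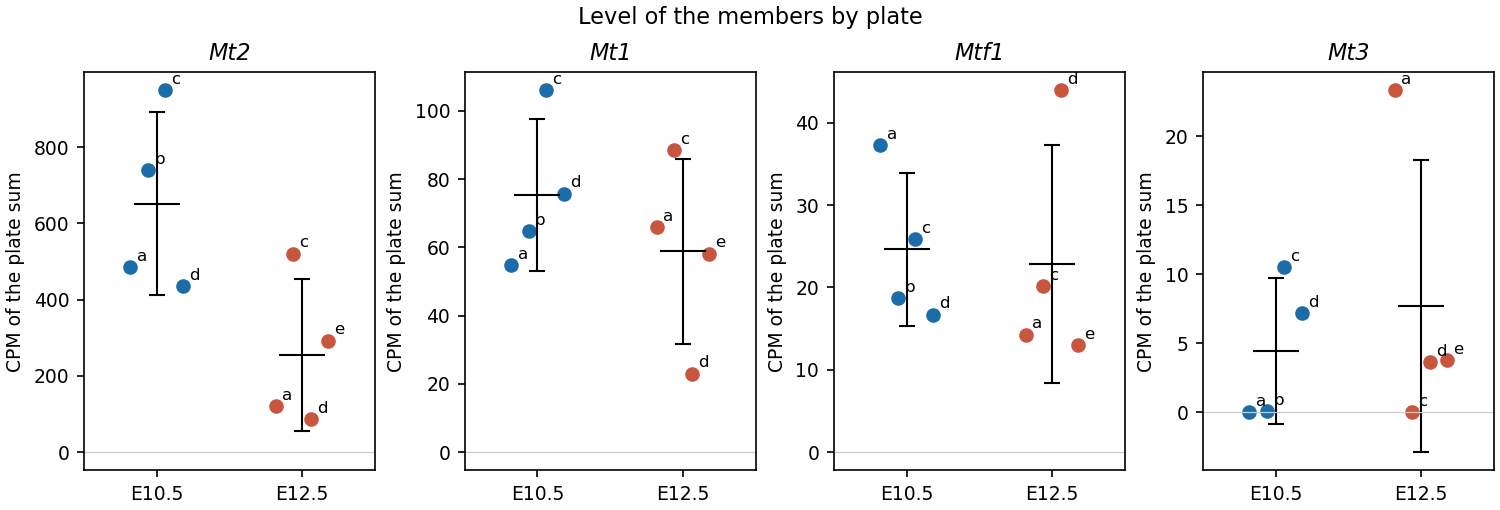
Level of Mt1, Mt2, Mt3 and Mtf1 per plate, in CPM of the reads summed over the cells of the plate. Each lettered dot is a plate and each bar the mean with its SD over 4 plates; for Mt2, 3 of the 4 E12.5 plates lie below all E10.5 plates, and plate c (520.8 CPM) does not.

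The plate levels of Mt2 and Mt1 were made by few cells. On the plates of E10.5 in the order of the letters, the single highest cell held 28.1%, 19.6%, 40.7% and 31.3% of the Mt2 reads. On those of E12.5 it held 49.6%, 76.3%, 78.5% and 64.5%. The E12.5 plate that reached the range of E10.5 did so through a single cell, which held 5801 of the 7604 Mt2 reads of plate c at 27008 CPM.

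When the highest cell of every plate was left out, an alternative chosen after seeing the data, the Mt2 level was 351.5, 599.8, 572.0 and 300.5 CPM at E10.5. It was 61.0, 125.3, 18.7 and 105.6 CPM at E12.5. The means were 456 ± 152 and 77.7 ± 47.6 CPM (SD, n = 4 plates each) and the plates of the stages did not overlap. The cell left out was chosen by the value described, and E12.5 plates with fewer carrying cells lost more of their reads, so these values are a description with no test.

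The 5 highest cells of a plate held 91.8%, 60.4%, 79.8% and 71.1% of its Mt2 reads at E10.5, and 98.8%, 99.5%, 99.6% and 99.7% at E12.5. The share was higher at E12.5 (99.4% ± 0.42 against 75.8% ± 13.3, SD, n = 4 plates each, exact permutation p = 0.029), and the plates did not overlap. Among 5107 genes with enough reads on every plate, 1.7% had plates that did not overlap with the higher share at E12.5. No E12.5 plate had more than 5 cells with a counted molecule of either gene, as given below, so this share and the count of carrying cells are not independent. For Mt1 the 5 highest cells held 99.4%, 51.9%, 92.5% and 88.1% at E10.5 and from 98.8% to 99.8% at E12.5 (83.0% ± 21.2 against 99.5% ± 0.46, exact permutation p = 0.057).

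Averaged over the 8 plates, the 5 highest cells held 91.2% of the Mt1 reads, a share that 66 of the 5107 genes exceeded, and 87.6% of the Mt2 reads, exceeded by 184. Mtf1 had 89.3%, exceeded by 115, so this was not particular to the metallothioneins. The median gene had 57.1%. Actb, a cytoskeletal gene of every cell, had 15.7%, and Epcam, whose protein was used for the sort, had 22.4%.

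**Figure D2:**
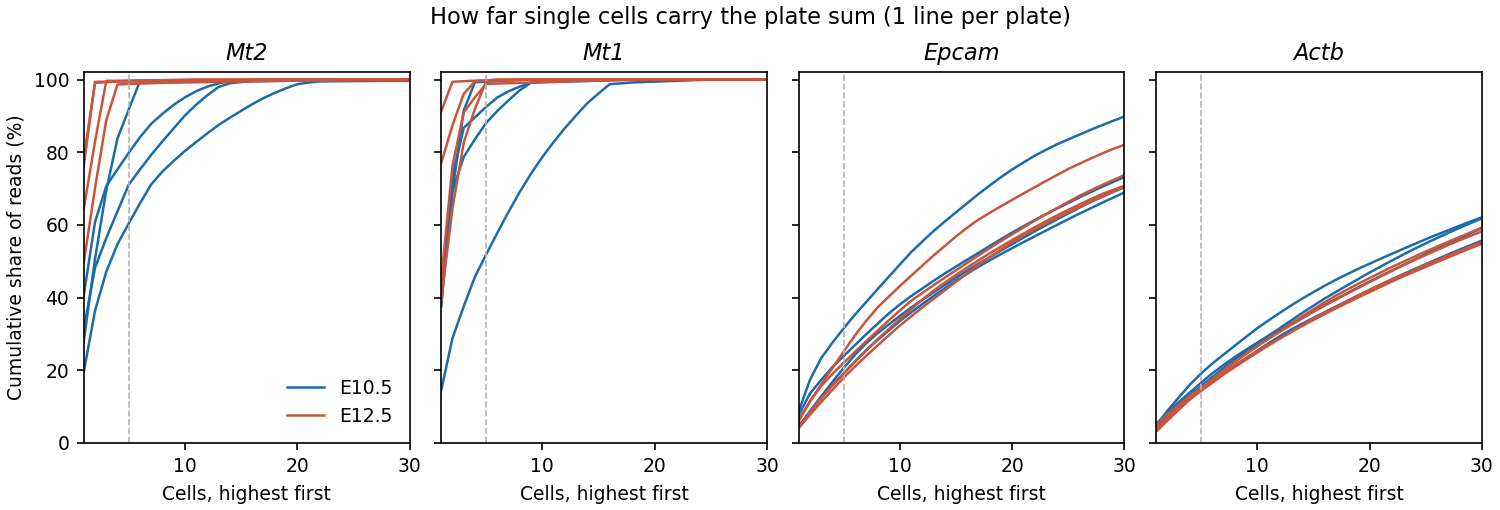
Cumulative share of a plate's reads (percent) against the number of cells, counted from the cell with the most reads, with a line for each plate. The dashed line marks 5 cells, by which the E12.5 plates had passed 98% of their Mt2 reads while the E10.5 plates lay between 60.4% and 91.8%.

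Most cells with reads of Mt2 had few of them and no counted molecule. Of the 711 cells, 202 had 1 to 4 reads of Mt2, and none of these had a molecule, that is, a count of its molecular index after the authors' error correction. These 202 cells held 0.522% of all Mt2 reads, and none exceeded 30.8 CPM. The 66 cells with a molecule of Mt2 in the first sequencing run began at 279 CPM, with a median of 2615. Another 4 cells had 5 or more reads and no molecule, at up to 205 CPM. For Mt1, 57 cells had 1 to 4 reads, none with a molecule and none over 21.3 CPM, and the 54 cells with a molecule began at 69.3 CPM. Every one of these 66 and 54 cells also had a molecule of that gene in the repeat run of the plate. The repeat run covered the same wells, so it is no independent finding of the carrying cells. Whether reads of 1 to 4 per cell came from the cell or from other wells was not tested, so shares of cells are given by both measures.

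With each cell thinned to 40000 reads, 14.8%, 41.8%, 34.1% and 27.2% of the cells on the E10.5 plates had a Mt2 read, and 8.79%, 20%, 4.71% and 8.99% of those on the E12.5 plates. Plate a of E10.5 fell among the E12.5 plates, and the means of 29.5% ± 11.5 and 10.6% ± 6.56 (SD, n = 4 plates each) gave an exact permutation p = 0.057. Without thinning, the means were 49.1% and 27.1% (exact permutation p = 0.14).

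By molecules, 6 of 88, 21 of 91, 14 of 85 and 14 of 92 cells carried Mt2 at E10.5, and 4 of 91, 2 of 90, 2 of 85 and 3 of 89 at E12.5. The plates did not overlap (15.4% ± 6.68 against 3.09% ± 1.01, SD, n = 4 plates each, exact permutation p = 0.029). Among 11233 genes, 3.45% had plates that did not overlap with the lower share at E12.5, and 5.65% with the higher share. Pooled over plates, 55 of 356 cells (15.4%, exact binomial 95% interval 11.9% to 19.6%) had a Mt2 molecule at E10.5 and 11 of 355 (3.10%, 1.56% to 5.48%) at E12.5. Intervals cover counting error only.

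Depth differed between these plates, with a median from 1305 molecules per cell (plate a of E10.5) to 5175 (plate c of E10.5). With each cell thinned to 1000 molecules, which left out 25 cells at E10.5 and 5 at E12.5, the shares were 7.10% ± 2.95 and 2.84% ± 1.42 (SD, n = 4 plates each, exact permutation p = 0.057). Thinning, of reads above and of molecules here, was a single random draw per cell. In it 24 of 331 cells kept a Mt2 molecule at E10.5 (55 of 356 before). At E12.5, 10 of 350 did (11 of 355 before). The lower share at E12.5 kept its direction in this draw, and the plates overlapped. Other draws were not made, so the overlap and the p-value rest on this draw.

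Cells with a Mt1 molecule numbered 4, 16, 9 and 9 on the E10.5 plates and 5, 2, 4 and 5 on the E12.5 plates. The pooled shares were 10.7% (7.67% to 14.4%) and 4.51% (2.60% to 7.22%), and the plates overlapped (exact permutation p = 0.11). Mt3 molecules were found in 5 cells at E10.5 and 6 at E12.5. Mtf1 molecules were found in 20 cells (5.62%) and 18 cells (5.07%), so the shares of the factor and of Mt3 did not separate the stages.

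**Figure D3:**
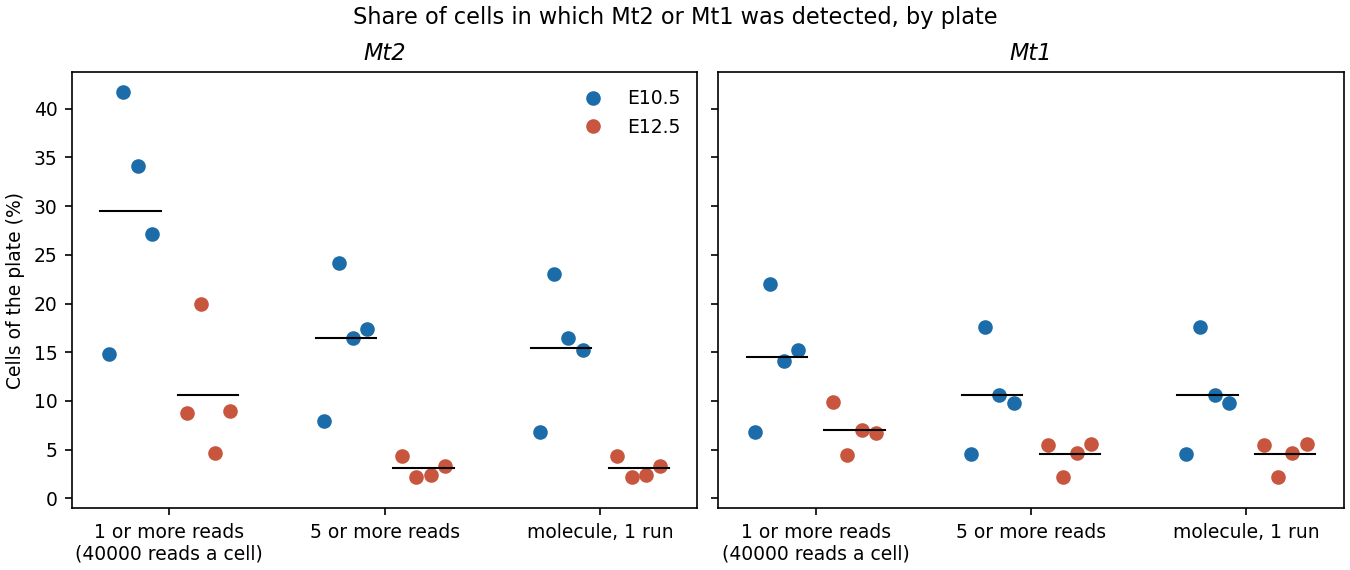
Share of cells (percent) on each plate with Mt2 or Mt1 by the 3 measures given in the panels, with a dot for each plate and a line at the mean of 4 plates. The E10.5 and E12.5 plates are apart for Mt2 molecules (15.4% and 3.09% on average) and overlap for Mt2 reads thinned to 40000 per cell.

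The level of Mt2 within the cells that carried it overlapped between the stages. The median level in cells with a molecule was 2286 CPM at E10.5 (279 to 25968, 55 cells) and 6711 CPM at E12.5 (1090 to 27008, 11 cells). The medians of the E10.5 plates were 9898, 1446, 3919 and 1212 CPM, and those of the E12.5 plates 1263, 17985, 4735 and 7821 CPM. They overlapped, at 4119 ± 4043 and 7951 ± 7206 CPM (SD, n = 4 plates each, exact permutation p = 0.43). For Mt1 the median was 358 CPM at E10.5 and 688 CPM at E12.5 (exact permutation p = 0.60 over plates).

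Most reads of a carrying cell came from very few molecules. Of the 66 cells with Mt2, 30 had 1 molecule in the first run, the median was 2 and the highest 35. Of the 54 cells with Mt1, 31 had 1 molecule and the highest had 20. Mt2 gave more reads per molecule than Mt1 on 8 of 8 plates (65.2 to 375 against 13.3 to 93.4) and in 31 of 31 cells with both, by a median of 4.96 times, while all genes together had 11.3 to 54.9. The transcripts differed little in length, 511 bases for Mt2 and 549 for Mt1.

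The excess of Mt2 over Mt1 in reads was therefore larger than in molecules. The plate ratio of Mt2 to Mt1 reads was 8.85, 11.4, 8.95 and 5.74 at E10.5 and 1.82, 5.89, 3.74 and 5.02 at E12.5. These overlapped at a single plate (8.75 ± 2.33 against 4.12 ± 1.77, SD, n = 4 plates each, exact permutation p = 0.057). In molecules the ratio was 2.0, 1.97, 1.61 and 1.44 at E10.5 and 0.529, 1.33, 0.571 and 1.30 at E12.5, so that plates a and d of E12.5 held fewer molecules of Mt2 than of Mt1. In the 31 cells with both, the median ratio was 6.80 in CPM and 1.0 in molecules.

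The same cells often carried both genes. Of the 711 cells, 31 had molecules of both, 23 of Mt1 alone, 35 of Mt2 alone and 622 of neither. Mt2 was found in 57.4% of the cells with Mt1 (exact binomial 95% interval 43.2% to 70.8%) and in 5.33% of those without, and Mt1 in 47.0% (34.6% to 59.7%) of the cells with Mt2. At E10.5, 24 of 38 Mt1 cells also had Mt2, and at E12.5, 7 of 16. All 31 cells with both held more Mt2 than Mt1 in CPM.

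As a description over the 85 to 92 cells of a plate, which share a library and its depth, Spearman's rho between Mt1 and Mt2 CPM was 0.24, 0.28, 0.27 and 0.31 at E10.5 and 0.29, 0.24, 0.34 and 0.24 at E12.5. It was positive on 8 of 8 plates and did not separate the stages (0.27 ± 0.03 against 0.28 ± 0.05, SD, n = 4 plates each, exact permutation p = 0.91). In molecules rho was 0.60, 0.42, 0.60 and 0.41 at E10.5 and 0.67, 0.50, 0.35 and 0.51 at E12.5. For Actb and Epcam, measured in the same way, it lay between -0.22 and 0.12.

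The value of rho depended on the measure and on the cells included. Its median over plates was 0.27 in CPM, 0.50 in molecules and 0.86 in cells with reads of both genes, of which a plate had 3 to 19. Pearson's r on log2(CPM + 1) had a median of 0.49. Leaving out the neural-like and parathyroid-like cells described below gave a median rho of 0.32.

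**Figure D4:**
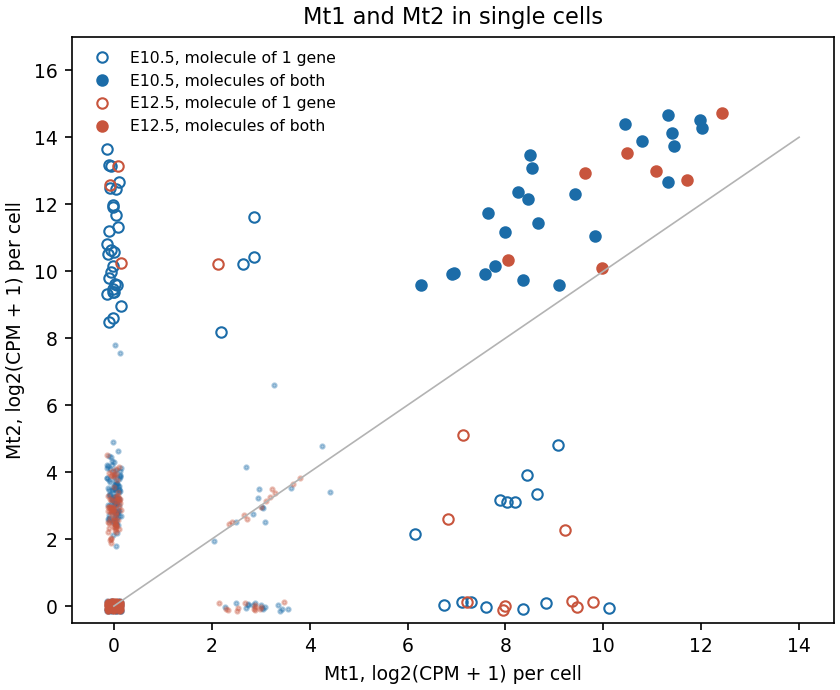
Level of Mt2 against Mt1 in each cell, as log2(CPM + 1), at E10.5 and E12.5. Small dots are cells with no molecule of either gene, open circles cells with a molecule of 1 gene and filled circles cells with both (24 at E10.5 and 7 at E12.5), all of which lie above the line of equal levels.

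Among 7309 protein-coding genes read in at least 10% of cells, Mt2 was the gene most like Mt1 by the median rho over the 8 plates, and Mt1 the gene most like Mt2 (0.27). After Mt2, the genes most like Mt1 were Perp (0.24), a component of epithelial desmosomes, Fxyd3 (0.18), a regulator of the sodium pump, Tamm41 (0.18), of mitochondrial cardiolipin synthesis, and Jup (0.17), the junction protein plakoglobin. After Mt1, those most like Mt2 were Myo9b (0.17), Cox4i2, Klc4 and Mfap1a (each 0.15). Each of these had a negative rho on at least 1 plate (lowest -0.14, -0.097, -0.11 and -0.078), as did Fxyd3 and Tamm41 with Mt1 (each -0.11). The pair itself lay between 0.24 and 0.34 on every plate. In molecules, over 4783 genes, Mt1 was followed by Mt2 (0.50), Perp (0.29), Hspb1, Ahnak and Anxa2, and Mt2 by Mt1 (0.50), the tight junction claudins Cldn4 (0.23) and Cldn7 (0.21), Perp (0.21) and Efna1 (0.18). In molecules Hspb1, Ahnak and Anxa2 with Mt1, and Cldn4 and Efna1 with Mt2, were also negative on at least 1 plate. The genes were picked as the highest medians of many. The rho that unrelated genes would reach by such a choice was not computed.

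To see which cells carried the genes, the cells were clustered without the members and the zinc, copper and stress genes listed below, and the 8 clusters were named from marker genes. Names are rebuilt here and may differ from those of the study. Clusters 1 (145 cells, led by Trpc4, Six2 and Fgfr2) and 3 (118 cells, led by Psmb11 and Ccl25) were cortical thymic epithelial (cTEC)-like and from E12.5. Cluster 2 (141 cells, 135 of E10.5, led by Aldh1a1 and Ptges) and cluster 5 (79 cells, 65 of them from plate a of E10.5) were pharyngeal endoderm-like, although their markers exceeded the other clusters by a mean log2 ratio of only 0.16 and 0.47, and in cluster 2 the thyroid markers had a higher ratio (0.33), with 1 of 4 at 10 CPM or more. Cluster 4 (83 cells, 81 of E10.5) was neural-like, cluster 7 (42 cells of E12.5) parathyroid-like, and cluster 8 (30 cells of E12.5, led by Krt5 and Krt17) like medullary (mTEC) progenitors. Cluster 6 (73 cells, 70 of E10.5, led by Slc2a3 and Olfml3) stayed unnamed. Values by cluster are a description, with no test.

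Mt2 molecules were found mainly in the endoderm-like clusters, in cluster 6 and in the mTEC progenitor-like cells. They occurred in 31 of 141 cells of cluster 2 (21.99%, exact binomial 95% interval 15.5% to 29.7%), 19 of 73 of cluster 6 (26.0%, 16.5% to 37.6%), 8 of 79 of cluster 5 (10.1%, 4.47% to 19.0%) and 4 of 30 of cluster 8 (13.3%, 3.76% to 30.7%). In the cTEC-like clusters 2 of 263 cells carried Mt2 (0.760%, 0.0922% to 2.72%), in the neural-like cluster 1 of 83 and in the parathyroid-like cluster 1 of 42. Clusters 2, 5, 6 and 8 made up 45.4% of the cells and held 96.2% of the Mt2 reads and 94.0% of the Mt1 reads. These clusters differed in depth, with a median of 1316 molecules per cell in cluster 5 and 5025 in cluster 2. Thinned to 1000 molecules, the counts were 11 of 141 in cluster 2 (7.80%, 3.96% to 13.5%), 5 of 58 in cluster 5 (8.62%, 2.86% to 19.0%), 11 of 73 in cluster 6 (15.1%, 7.77% to 25.4%) and 4 of 30 in cluster 8. In this single draw at 1000 molecules per cell, cluster 2 was not above cluster 5, and the intervals of clusters 2, 5 and 6 overlapped. Cells with fewer molecules were left out, and reads per molecule were not matched. The neural-like cluster had 0 of 78, which allows a share of up to 3.85% as 3 cells of the total, or 4.62% as the exact binomial limit.

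The mean Mt2 level over plates with at least 3 cells of the cluster was 946 ± 951 CPM (SD, n = 5 plates) in cluster 2, 1400 ± 1149 (n = 2) in cluster 5, 1673 ± 742 (n = 3) in cluster 6 and 1793 ± 1986 (n = 4) in cluster 8. It was 14.1 ± 24.8, 13.9 ± 22.9 and 23.7 ± 36.9 CPM (n = 4 plates each) in clusters 1, 3 and 4. In the parathyroid-like cluster it was 188 ± 372 CPM (n = 4), where a single cell held 98.2% of the reads. The levels of clusters 2, 5, 6 and 8 overlapped over plates, as did those of clusters 1, 3 and 4. Clusters 2 and 8 each had a plate at 0 CPM, plate a of E10.5 and plate d of E12.5, and so also overlapped clusters 1, 3 and 4. Some means rested on few cells. Cluster 2 was at 582 CPM without plate e of E12.5, where it had 3 cells. Cluster 5 was at 587 CPM without plate c of E12.5, where it had 6 cells, and cluster 8 at 847 CPM without plate c, with 58.6% of its reads in a single cell. A read of Mt2 was present in 44.6% of the neural-like cells (19.3% when thinned), beside 1.205% with a molecule.

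Within E10.5 the share was higher in clusters 2, 5 and 6 than in the neural-like cluster on each plate, although few neural-like cells were present. Of the cells of clusters 2, 5 and 6 together, 6 of 72, 20 of 69, 14 of 66 and 14 of 68 carried a Mt2 molecule on plates a to d. Of the neural-like cells, 0 of 16, 1 of 22, 0 of 19 and 0 of 24 did, and on plate a the counts were too small to show a difference. The few E12.5 cells of clusters 2, 5 and 6 had Mt2 in 4 of 18 cases (22.2%, 6.41% to 47.6%), next to 54 of 275 (19.6%, 15.1% to 24.8%) at E10.5, and the remaining E12.5 cells in 7 of 337 (2.08%). The lower share of Mt2 cells at E12.5 moved with the smaller number of cells in these clusters, and the part of the clusters in it was not tested.

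The 11 Mt2 cells of E12.5 can be given in full. They comprised 4 mTEC progenitor-like cells, 3 of cluster 2, 1 of cluster 5, 2 cTEC-like cells and 1 parathyroid-like cell. The 4 mTEC progenitor-like cells held 1283, 6711, 27008 and 11769 CPM of Mt2, and each also had a Mt1 molecule. The 3 cells of cluster 2 held 1090, 8172 and 7821 CPM and also had Mt1. The remaining 4, at 1243 to 8963 CPM, had no Mt1 molecule.

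Mt1 was found most often in the mTEC progenitor-like cells, in 9 of 30 (30%, 14.7% to 49.4%) and on all 4 plates of E12.5, at a mean of 498 ± 423 CPM (SD, n = 4 plates). This mean was 323 CPM without plate c, and a single cell held 44.3% of the cluster's Mt1 reads. On plate d, 1 of its 6 cells had a Mt1 molecule, at a cluster level of 28.9 CPM. Mt1 was also found in 12 of 73 cells of cluster 6 (16.4%, 8.79% to 27.0%), at 194 ± 104 CPM (n = 3). It was found in 20 of 141 cells of cluster 2 (14.2%, 8.88% to 21.1%) and in 5 of 79 of cluster 5 (6.33%, 2.09% to 14.2%). The neural-like cluster had 4 such cells of 83, all on plate b of E10.5, where its 4 of 22 (18.2%) was beside 12 of 69 (17.4%) in clusters 2, 5 and 6, and the cTEC-like clusters 4 of 263. No parathyroid-like cell had a Mt1 molecule (0 of 42, which allows up to 7.14% as 3 cells of the total, or 8.41% as the exact binomial limit).

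Mt3 was laid out differently from its neighbours. All 6 Mt3 cells of E12.5 were parathyroid-like (6 of 42, 14.3%, 5.43% to 28.5%), at 193, 0, 39.0 and 55.2 CPM on plates a, c, d and e (mean 71.7 ± 83.9, SD, n = 4 plates). Plate c had none in 15 cells, and the mean was 31.4 CPM without plate a. At E10.5 cluster 2 had 3 Mt3 cells and cluster 6 had 2. Mtf1 was spread widely, with molecules in 12 of 145 cells of cluster 1 (8.28%), 11 of 141 of cluster 2 (7.80%) and 1 to 3 cells of each other cluster.

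**Figure D5:**
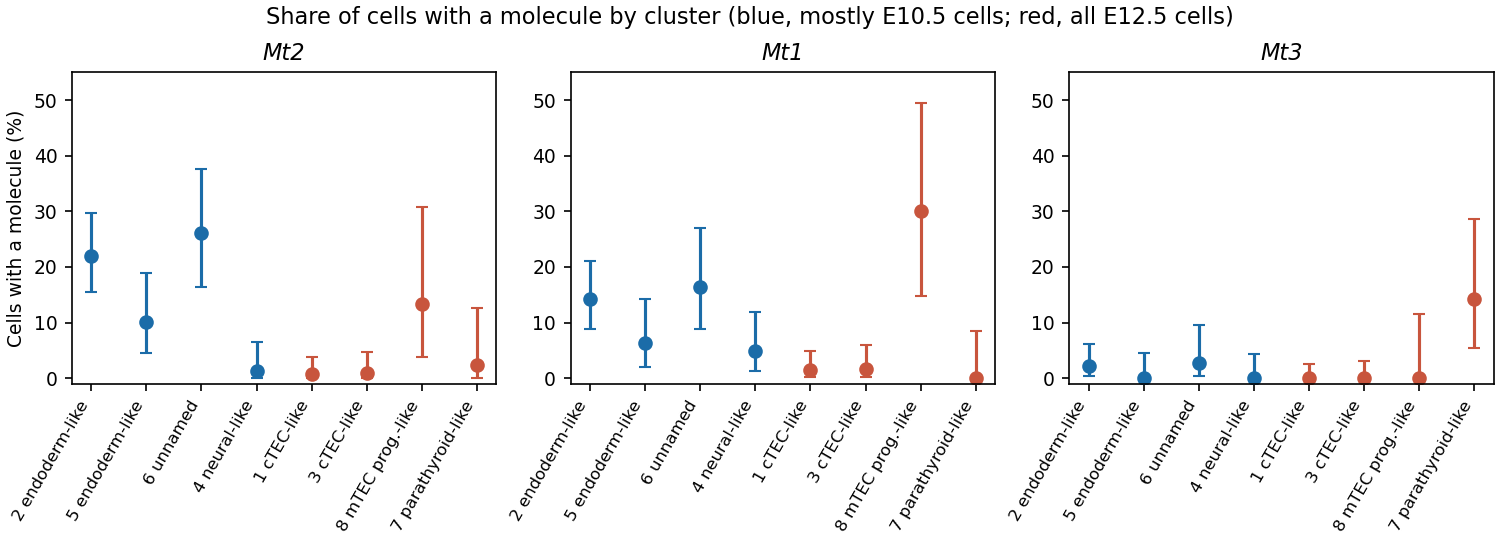
Share of cells (percent) in each of the 8 clusters with a molecule of Mt2, Mt1 or Mt3, with exact binomial 95% intervals as error bars. Mt2 reaches 26.0% in cluster 6 and 21.99% in cluster 2 and is at most 2.38% in clusters 1, 3, 4 and 7, while Mt3 is highest in the parathyroid-like cluster 7 (14.3%).

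A single other gene of the zinc and copper lists passed the test between the stages. Of 33 exporters, importers and copper genes, 23 could be tested, 10 with a positive and 13 with a negative fold change and a median of -0.23 on the log2 scale, against 0.00 over all 11499 genes. Past the threshold in edgeR were 0 higher at E12.5 (3.8% of all genes tested) and 1 lower (2.44%). Among the exporters of the ZnT family 4 of 10 were tested and none was called, and Slc30a3 was listed at 0 along with Slc30a1. Among the ZIP importers 10 of 14 were tested and 1 was called, and among the copper genes 9 of 9 were tested and none was called.

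The gene called was Slc39a5, which encodes the zinc importer ZIP5 of epithelia. It stood at 2.31, 5.58, 5.74 and 2.44 CPM on the E10.5 plates and at 0, 0, 0.171 and 0 CPM on the E12.5 plates. It fell by 6.29 on the log2 scale (SE 1.60, adjusted p = 0.040 in edgeR). This rested on 205 reads against 3, a ratio of 0.0118 with an exact counting interval of 0.00242 to 0.0351 that takes reads as independent. The 205 reads lay in 13 cells, so that interval is too narrow. A molecule was found in 8 cells at E10.5 and in none at E12.5, where 0 of 355 cells allows a share of up to 0.845%. Left-out plates moved the log2 fold change of Slc39a5 between -8.87 and -5.91 and its adjusted p between 0.044 and 0.11. Slc39a5 missed the threshold without plate b, c or d of E10.5 and without plate a, c or e of E12.5. It also missed the threshold with no filter on low counts (0.085), in limma (0.052) and over letters a, c and d with a replicate block (0.36) or without it (0.19).

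Outside the threshold, the genes with the largest positive values of the 23 tested were named after these values were seen. They were Atp7b, a copper-transporting ATPase (log2 fold change 3.41, SE 1.01, adjusted p = 0.076 in edgeR), and the ZIP importers Slc39a13 (2.82, SE 0.91, adjusted p = 0.11) and Slc39a8 (2.53, SE 0.73, adjusted p = 0.070). Their E12.5 means were 5.50, 8.91 and 91.5 CPM, against 0.489, 1.28 and 15.3 CPM at E10.5. The exporter Slc30a10 fell below the filter on low counts and was not tested. Its means were 5.11 CPM at E12.5 and 0.0602 CPM at E10.5. At E12.5, plate a was at 4.87 CPM, plate c at 6.03 and plate d at 9.46. Plate e of that stage, at 0.0645 CPM, lay below plate c of E10.5 (0.171 CPM), so the stages overlapped.

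Of the zinc and copper lists, the 3 genes with the most reads were in that of copper handling. Sod1, which encodes the copper and zinc superoxide dismutase, had 1858 CPM on average (2899 per kilobase), with a log2 fold change of -0.25 (SE 0.23). Atox1, a copper chaperone, had 408 CPM (754 per kilobase) and a log2 fold change of 0.74 (SE 0.36). Cox17, which delivers copper to cytochrome c oxidase, had 71.5 CPM (161 per kilobase) and 0.12 (SE 0.29). None of the 3 passed the threshold in edgeR (adjusted p = 0.64, 0.32 and 0.90).

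Genes of 3 responses that accompany metallothionein induction were set beside the members. The oxidative stress list held 9 genes, Nfe2l2, which encodes the regulator NRF2, and targets of NRF2. Of these Gclc alone was called (3.8% of all genes tested were higher), which encodes the catalytic subunit of glutamate-cysteine ligase. Its log2 fold change was 3.37 (SE 0.72, adjusted p = 0.018 in edgeR), from 3.10 to 36.7 CPM. Without the neural-like and parathyroid-like cells it was 1.62 (adjusted p = 0.38), and without plate c of E10.5 the adjusted p was 0.051 and with a replicate block over letters a, c and d 0.080. The median of the 9 was 1.62. Of 7 glucocorticoid response genes 6 were tested, none was called, and the median was 0.16.

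Of 12 immediate early and heat shock genes 11 were tested, and 7 rose at E12.5 (3.8% of all genes tested did), with a median log2 fold change over the list of 2.40. They were the transcription factors Fos (2.40), Jun (1.79), Junb (3.57) and Egr1 (2.89), Ier2 (1.71), the phosphatase Dusp1 (2.34) and the small heat shock protein Hspb1 (2.72). For example, Junb stood at 22.9, 11.4, 18.5 and 23.0 CPM on the E10.5 plates and at 279.9, 267.5, 190.3 and 221.0 CPM on the E12.5 plates. The call of Fos was lost without plate b (adjusted p = 0.074) or c (0.059) of E10.5 and without plate e of E12.5 (0.051). It was also lost over all annotated genes (0.050), without the 5 highest cells (0.061) and over letters a, c and d with a replicate block (0.054) or without it (0.14), that of Dusp1 with the block (0.054) and that of Ier2 in limma (0.067). The rise of these genes went with the stage, as did the lower share of Mt2 cells, and their part in the Mt2 result was not tested.

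Other cell types and the sort were checked against their markers. Epcam was read in 82.0% of the E10.5 and 91.0% of the E12.5 cells, and Plet1, whose protein was also used for the sort, in 41.3% and 15.2% (271 to 409 and 50.0 to 128 CPM over plates). Summed on each plate, 8 erythroid markers reached at most 0.239 CPM on the E10.5 plates and 5.81 CPM on the E12.5 plates, with 3 at 0. The 6 mesenchymal markers lay between 63.8 and 120.2 CPM at E10.5 and between 5.49 and 24.2 at E12.5, the 4 endothelial ones at up to 25.0 and 0.137 CPM with Cdh5 at 0, and the 5 haematopoietic ones at up to 7.54 and 44.0 CPM with Cd3e and Lyz2 at 0. The 8 neural markers lay at 1327 to 2935 CPM at E10.5 and 622 to 844 at E12.5, and the 5 parathyroid markers lay at 18.5 to 59.6 and 2786 to 8630 CPM. The 4 thyroid markers lay at 53.6 to 91.7 CPM on the E10.5 plates and 0.137 to 10.6 CPM on the E12.5 plates, with Tg at 0, and were read in 26.1% and 2.54% of cells. Their mean log2 ratio over the other clusters was highest in cluster 6 (1.02), where Mt2 molecules were most frequent, and their part in the Mt2 result was not tested. Without the neural-like and parathyroid-like cells the log2 fold change of Mt2 was -1.61 (adjusted p = 0.12 in edgeR).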

How the data were processed

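Single-cell libraries of 4 plates per stage were analysed. The authors demultiplexed wells in the BD Precise WTA pipeline, used STAR for alignment and counted under HTSeq-count's union rules on GRCm38.p6 and GENCODE vM18, per the file headers. The submitters' processing notes name GRCm38.p5. Deposited were raw read counts of both stages in 1 table, without normalization, and, for each sequencing run, read counts and counts of molecules after RSEC and DBEC correction. On each plate every value of the table equalled the sum of 2 runs. Plate b of E12.5, with a single run, is absent from the table and entered only an alternative. Reads on all genes were 14981265 to 20106286 per plate. No doublets were called, since cells were sorted singly.

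Cells were kept with at most 50% mitochondrial reads, 40000 to 400000 reads and 500 to 5000 features, and CPM used the 21964 protein-coding genes. Reads summed per plate were tested with edgeR 4.0.16 (TMM, filterByExpr, robust quasi-likelihood fit), with limma 3.58.1 and DESeq2 1.42.0 as alternatives. Exact permutation tests were two-sided. Clusters came from Seurat 5.3.0 with sctransform 0.4.2 in R 4.3.3 (20 principal components, 20 neighbours), and the naming rule was set after the clusters were seen. Python 3.11.15 with scipy 1.17.1 did the remainder. The tests across genes were tested on simulated data.

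Members and gene lists were chosen with earlier results of these data known. Named were the members, each listed gene past the threshold of 0.05, the 3 zinc and copper genes with the highest mean CPM, and the 5 genes most like Mt1 and Mt2 among those read in at least 10% of cells. Gene positions come from GENCODE vM21 on GRCm38, another release than that of the counts. All 5 members matched the RefSeq promoter table. Plates of the same letter did not deviate together (residual r of 0.074, -0.012 and 0.027 for a, c and d), so letters did not pair the stages. Other settings tried were size factors, filters, molecules, single runs, left-out plates and left-out cells.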

Additional observations from a re-analysis of the deposited data

Results flagged for a closer look

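In 10 of 66 groups of 4 or 5 plates tested, the highest plate stood apart from the others by Dixon's criterion, where chance gives about 1 group in 20 of normally distributed values. These values were not of that kind, since in most of the 10 groups the other plates were at or near 0, so the number of groups is not read against that rate. Plate a of E12.5 stood apart for Mt3 at 23.3 CPM, plate e for Hspb1 at 278 CPM and plate d for Slc39a5 at 0.171 CPM, where the other 3 plates were at 0.

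The remaining 7 groups were clusters in which few cells carried Mt1 or Mt2. For Mt1 the highest plate was at 7.41 CPM in cluster 1, 43.7 CPM in cluster 3 and 55.01 CPM in the neural-like cluster 4. For Mt2 it was at 51.3 CPM in cluster 1, 48.2 CPM in cluster 3, 78.9 CPM in cluster 4 and 746 CPM in the parathyroid-like cluster 7.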

How the results depend on the processing

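The number of genes past the threshold between the stages was 718 in edgeR, 1638 in DESeq2, 1127 in limma on mean log2(CPM + 1), and 496 to 815 when each plate was left out. Letters did not pair the plates: with a replicate block over letters a, c and d the number was 230, and 382 for the same plates without the block. The block gave Mt2 -1.87 (adjusted p = 0.052) and turned Mt3 to -1.13.

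Mt2 passed the threshold in DESeq2 (-1.42), in molecules of both runs added (-1.51), in limma (-1.81) and without the 5 highest cells of each plate (-6.68). Mt1 passed it in the last of these (-5.06, adjusted p = 0.046 in edgeR), which leaves no E12.5 cell with a molecule of either gene. Adding plate b of E12.5 turned Mtf1 to 0.079, and Cox17 turned to -0.27 in molecules of both runs added and -0.086 in limma. With each plate left out, the log2 fold change was -1.95 to -1.14 for Mt2, -0.68 to -0.20 for Mt1, -0.87 to 1.29 for Mt3, -0.69 to 0.081 for Mtf1 and -0.038 to 0.30 for Cox17, and the stage difference in the share of Mt2 reads in 5 cells was 18.5 to 29.0 percentage points. The sign of Mtf1 turned without plate a of E10.5 and without plate a or e of E12.5, and that of Cox17 without plate d of E12.5.

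The stage difference in cells with Mt2 was -18.8 percentage points in thinned reads, -12.3 in molecules, -4.27 in molecules thinned to 1000 (exact permutation p = 0.057) and -13.4 with at least 5 reads. Each thinned value came from a single random draw. The median rho of Mt1 and Mt2 was 0.50 in molecules, 0.32 without neural-like and parathyroid-like cells and 0.86 in cells with both, and r was 0.49. The stage difference of rho turned to -0.0019 in molecules and -0.015 without those cells. Left-out plates gave -0.018 to 0.016 for it, -0.33 to 1.24 points for cells with Mt3, and 582 to 1182 CPM for Mt2 in cluster 2, 587 to 2213 in cluster 5, 1264 to 1989 in cluster 6, 847 to 2391 in cluster 8, 1.66 to 18.4 in cluster 1, 2.43 to 17.9 in cluster 3, 5.30 to 31.3 in cluster 4 and 2.23 to 251 in cluster 7. With 4 plates against 3 no exact p can go below 0.057. The causes of these changes were not tested. Few reads limit what can be said of Mt3, Mtf1 and Slc30a1.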

Other observations

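Plate b of E12.5, which had 1 run and entered only an alternative fit, held 92 cells that met limits scaled to 1 run. Mt2 stood at 42.8 CPM with a molecule in 1 cell, below the other E12.5 plates. Mt1 stood at 46.7 CPM with 4 such cells, Mt3 at 27.0 CPM with 2, Mtf1 at 43.5 CPM with 3, and Slc30a1 was at 0.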
